A study of Mus musculus with 12 samples.

Results

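Themis, Osbpl3, Sema5b and Rad51b are 4 of the 55291 genes in a liver count table. They were taken by name and chosen by their levels in these libraries: close to silent on a normal diet and much higher on a high-fat diet. The difference between those 2 groups is therefore described below without a test. All 4 had counts high enough to be tested, among 18305 such genes. The livers came from male C57BL/6 mice that entered the study at 6 weeks of age, and RNA-seq gave 12 libraries in 4 groups of 3. The NC mice ate a normal diet, and the HFD mice ate the high-fat diet D12492. The HFD+AE and HFD+RE mice ate the same high-fat diet, began training after 8 weeks and trained for at least 12 weeks. AE and RE are not spelled out in the labels; exercise studies commonly use them for aerobic and resistance training. The labels do not tie each library to its own mouse. The spread behind every p-value is that among libraries within groups, and it could be technical. The main model estimates it from all 12 libraries together.

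The 4 genes are not known to share a pathway. THEMIS is an adaptor protein of the T-cell lineage that tunes signals from the T-cell receptor while thymocytes are selected. OSBPL3 (ORP3) belongs to the oxysterol-binding protein family, which moves lipids where the endoplasmic reticulum touches other membranes. SEMA5B is a membrane-bound semaphorin, a family of guidance cues read by plexin receptors and best studied in neurons. RAD51B acts in the repair of DNA breaks by homologous recombination.

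On mm10, Themis lies on chromosome 10 from 28668360 to 28883818, plus strand, with 11682 exon bases. Osbpl3 lies on chromosome 6 from 50293330 to 50456201, minus strand, with 9021 exon bases. Sema5b lies on chromosome 16 from 35541145 to 35664732, plus strand, with 7080 exon bases. Rad51b lies on chromosome 12 from 79297282 to 79814690, plus strand, and its 3757 exon bases are spread over the longest span of the 4, 517409 bases. All 4 are annotated as protein coding in GENCODE M21, with the same coordinates as in the table.

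The promoters are shown because the 4 genes were high and low in the same diet groups, and they let a reader compare what lies upstream. Each is the 250 bases before a RefSeq transcript start (build GRCm38.p6, 5′ to 3′ on the gene's strand). The windows are chr10:28668110-28668359 for Themis, chr6:50456171-50456420 for Osbpl3, chr16:35541112-35541361 for Sema5b and chr12:79297032-79297281 for Rad51b. The RefSeq start of Sema5b lies 217 bases inside the gene as the count table places it, and that of Osbpl3 lies 31 bases inside. That many of the 250 bases in those windows thus fall within the gene there and not upstream of it. Capitals mark the matches to any of the 11 motifs searched.
Themis: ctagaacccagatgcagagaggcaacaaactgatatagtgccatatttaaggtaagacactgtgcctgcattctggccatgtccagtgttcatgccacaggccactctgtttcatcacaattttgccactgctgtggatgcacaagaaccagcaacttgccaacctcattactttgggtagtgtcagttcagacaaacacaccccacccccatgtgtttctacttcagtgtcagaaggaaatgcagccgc
Osbpl3: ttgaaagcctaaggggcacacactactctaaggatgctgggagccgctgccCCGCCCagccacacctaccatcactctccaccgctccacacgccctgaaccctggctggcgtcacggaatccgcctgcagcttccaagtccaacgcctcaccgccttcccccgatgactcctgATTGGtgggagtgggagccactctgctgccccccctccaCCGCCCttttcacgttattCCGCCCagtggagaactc
Sema5b: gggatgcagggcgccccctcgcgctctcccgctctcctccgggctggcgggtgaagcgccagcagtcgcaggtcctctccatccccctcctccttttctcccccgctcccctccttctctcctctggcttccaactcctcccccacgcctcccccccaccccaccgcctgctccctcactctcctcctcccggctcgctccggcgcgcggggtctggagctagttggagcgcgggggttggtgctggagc
Rad51b: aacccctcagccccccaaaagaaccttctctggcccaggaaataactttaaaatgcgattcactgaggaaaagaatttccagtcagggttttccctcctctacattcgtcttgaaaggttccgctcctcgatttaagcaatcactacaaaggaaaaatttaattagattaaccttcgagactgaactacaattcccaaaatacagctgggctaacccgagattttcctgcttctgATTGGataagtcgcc

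The 4 windows differed in base composition. G and C made up 48.0% of the Themis window, 62.8% of Osbpl3, 72.0% of Sema5b and 42.8% of Rad51b, beside a median of 52.4% over 32851 RefSeq promoter windows of the same length. The Themis window held 1 CpG and the Sema5b window 19, with 13 in Osbpl3 and 7 in Rad51b and a median of 6. Motifs were searched on both strands. The GC box (GGGCGG) was present 3 times in Osbpl3 and is held by 32.7% of all windows. The CCAAT box (CCAAT, written ATTGG on the other strand) was present in Osbpl3 and in Rad51b and is held by 33.8% of all windows. The other 9 motifs had no match in the 4 windows. They were the nuclear receptor half-site AGGTCA, its direct repeats of the PPAR/RXR and the LXR/RXR type, which contain it, the E-box CACGTG, the TATA box TATAAA, the STAT-type site TTCNNNGAA, the cyclic AMP response element TGACGTCA, the C/EBP-type site TTGCGCAA and the antioxidant response core TGACNNNGC. Between 0.0152% (the LXR/RXR type) and 14.0% (the half-site) of all windows held each of them.

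Total counts ran from 47823607 to 77665729 in NC, 44373214 to 60308552 in HFD, 55922691 to 65434486 in HFD+AE and 51178332 to 61089139 in HFD+RE. Alb, the albumin gene of hepatocytes, was the most abundant transcript in all 12 libraries, at 4.25% to 9.82% of counts. The libraries did not separate cleanly by group on the first principal component of log2 CPM (40.6% of the variance). NC lay from -72.7 to -40.2 and HFD from 23.0 to 80.8. HFD+AE 1 and 2 and HFD+RE 3 lay between -40.4 and -36.6. The other exercise libraries lay on the HFD side, at 13.95 for HFD+AE 3 and at 50.4 and 52.6 for HFD+RE 4 and 5. The rank correlation across genes between gene length and a library's deviation from the mean level separated NC (0.08 to 0.21) from HFD (-0.29 to -0.15). It was 0.22 to 0.29 in HFD+AE 1 and 2 and HFD+RE 3 and -0.31 to -0.03 in HFD+AE 3 and HFD+RE 4 and 5. Mitochondrial rRNA held 0.708% to 0.924% of counts in NC, 1.76% to 3.26% in HFD, 0.771% to 0.867% in HFD+AE and 0.685% to 1.71% in HFD+RE. The summed level of 8 hepatocyte markers was 115929 to 130479 CPM in NC, 64202 to 89774 in HFD, 109708 to 122722 in HFD+AE and 94480 to 117015 in HFD+RE. The part of these measures in the results below was not tested, except through the alternatives named there.

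Levels are given as CPM, read counts scaled by library size with the TMM method, and differences as log2 values from a model of all 12 libraries. A gene is called at an adjusted p below 0.05 (edgeR's quasi-likelihood test, Benjamini-Hochberg adjustment over the 18305 genes).

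On the normal diet the 4 genes were measured at low but countable levels. Themis stood at 0.781, 0.631 and 0.973 CPM in NC 2, 4 and 5, from 42, 29 and 74 reads. Osbpl3 stood at 1.04, 2.02 and 1.85 CPM and Sema5b at 1.39, 1.31 and 1.84 CPM. Rad51b stood at 0.818, 0.218 and 1.10 CPM, and its value in NC 4 rests on 10 reads. Per kilobase of exon, the NC mean of Themis (0.0680 RPKM) was above that of 8.07% of the tested genes, and those of Osbpl3, Sema5b and Rad51b above 18.7%, 20.7% and 19.1%.

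On the high-fat diet Themis stood at 24.2, 27.6 and 21.2 CPM in HFD 1, 2 and 3. Osbpl3 stood at 47.5, 39.7 and 28.8 CPM, Sema5b at 20.4, 20.96 and 22.9 CPM, and Rad51b at 19.4, 11.6 and 10.4 CPM. For each of the 4 genes the lowest HFD library was far above the highest NC library, as the plot of levels by group shows; HFD lay wholly above NC for 23.9% of all genes. The HFD mean was 30.6 times the NC mean for Themis, 23.6 times for Osbpl3, 19.4 times for Rad51b and 14.1 times for Sema5b. On the log2 scale the fitted differences were 4.92 (SE 0.30), 4.56 (SE 0.34), 4.24 (SE 0.64) and 3.81 (SE 0.41), in the same order of genes. These values chose the genes and are a description: over all genes tested, 15.6% were called between these groups and 8.38% were called higher in HFD. Sema5b was the most even of the 4 within HFD, at 21.4 ± 1.296 CPM (SD, n = 3), and Rad51b the least, at 13.8 ± 4.90 CPM.

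Per kilobase of exon the 4 genes ended in a narrow band on the high-fat diet. The HFD means were 4.29 ± 1.04 RPKM for Osbpl3, 3.68 ± 1.304 for Rad51b, 3.02 ± 0.183 for Sema5b and 2.08 ± 0.275 for Themis (SD, n = 3). Neighbours in that order overlapped over libraries for Osbpl3 and Rad51b and for Rad51b and Sema5b. Themis, at 1.82 to 2.37 RPKM, was below every HFD library of the other 3 genes. The 4 means lay above those of 56.1% (Themis) to 70.2% (Osbpl3) of tested genes, so none was among the abundant liver transcripts even on this diet.

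**Figure D1:**
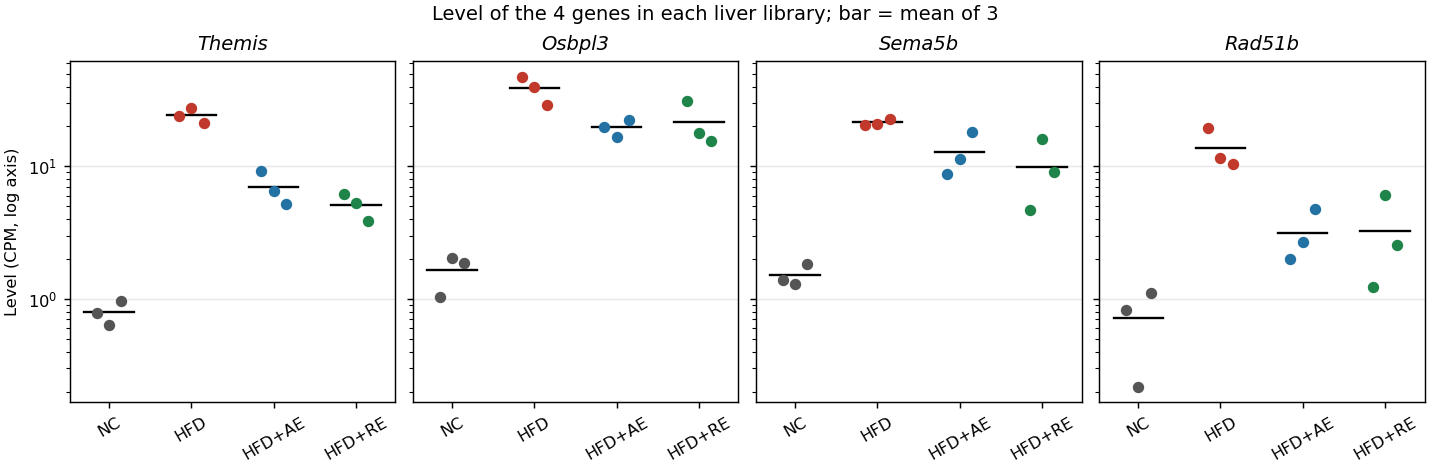
Level of each gene in CPM (log axis) in the 12 libraries, by group, with points for libraries and a bar for the mean of 3. The HFD points lie highest as groups and the NC points lowest, with the exercise groups between them; only Osbpl3 has an exercise library (HFD+RE 3, at 31.1 CPM) above its lowest HFD library (28.8 CPM).

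The comparison HFD+AE vs HFD asked how far below HFD each gene stood with AE training on the same diet. Its HFD libraries also took part in choosing the genes. No group was sampled before training began, and the labels do not give the time on diet for HFD. A level that came down with training and one that rose less cannot be told apart. Themis stood at 9.25, 6.52 and 5.19 CPM in HFD+AE 1, 2 and 3, all far below the 3 HFD libraries. Its mean of 6.99 ± 2.07 CPM (SD, n = 3) was 3.48-fold lower than in HFD, and Themis fell by 1.80 on the log2 scale (SE 0.25, adjusted p = 0.038). It was 1 of the 9 genes called in this comparison, 0.0492% of those tested, and 1 of the 6 called lower, 0.0328%. That call was close to the threshold: it was lost without NC 2 (adjusted p = 0.058), NC 4 (0.064), HFD 1 (0.15), HFD 3 (0.097), HFD+AE 2 (0.18) or HFD+RE 4 (0.061), while the log2 difference stayed between -2.05 and -1.62 in all 19 alternatives.

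The other 3 genes were lower with AE without passing that threshold. Osbpl3 stood at 19.97, 16.6 and 22.3 CPM, a log2 difference of -0.98 (SE 0.29, adjusted p = 0.078). Rad51b stood at 1.99, 2.68 and 4.74 CPM, a log2 difference of -2.14 (SE 0.57, adjusted p = 0.067). Sema5b stood at 8.77, 11.4 and 18.2 CPM, a log2 difference of -0.74 (SE 0.36, adjusted p = 0.21). The HFD+AE and HFD libraries did not overlap for any of the 4, as was so with HFD+AE lower for 16.3% of all genes. The choice of test mattered here: DESeq2 called 3 of the 4 (Themis, adjusted p = 1.5e-07; Rad51b, 0.0043; Osbpl3, 0.026) and gave Sema5b an adjusted p of 0.18, while it called 10.3% of all genes. For Sema5b, HFD+AE 3 was the library nearest to HFD, and leaving it out gave a log2 difference of -1.09 (edgeR, adjusted p = 0.099). With HFD+RE 3 left out as well, the difference was -1.07 (adjusted p = 0.013), in a fit that called 4253 genes where the full set called 9.

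With RE training, Themis stood at 6.15, 5.25 and 3.84 CPM in HFD+RE 3, 4 and 5, again far below HFD. Its mean of 5.08 ± 1.16 CPM (SD, n = 3) was 4.79-fold lower, and Themis fell by 2.26 on the log2 scale (SE 0.26, adjusted p = 0.0063). Here too the HFD libraries took part in choosing the genes, so Themis was picked partly for its high HFD level. Themis was 1 of only 2 genes called in HFD+RE vs HFD, 0.0109% of those tested, and the only 1 called lower, 0.00546%. The other, named after its values were seen, was Hsd3b5, a steroid dehydrogenase of male mouse liver, which rose by 7.97 (adjusted p = 0.0030). The Themis call held when any of the 12 libraries was left out (adjusted p from 0.0036 to 0.046).

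Osbpl3 stood at 31.1, 18.0 and 15.4 CPM in HFD+RE 3, 4 and 5, a log2 difference from HFD of -0.85 (SE 0.29, adjusted p = 0.40). It was the only gene of the 4 whose HFD+RE and HFD libraries overlapped. Rad51b stood at 1.23, 6.07 and 2.53 CPM, a difference of -2.07 (SE 0.57, adjusted p = 0.30), and was called by DESeq2 (adjusted p = 0.021), which called 1.0% of all genes. Sema5b stood at 4.67, 16.1 and 8.99 CPM, a difference of -1.11 (SE 0.37, adjusted p = 0.37). Non-overlap with HFD+RE lower was seen for 6.99% of all genes, and for 3 of these 4.

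**Figure D2:**
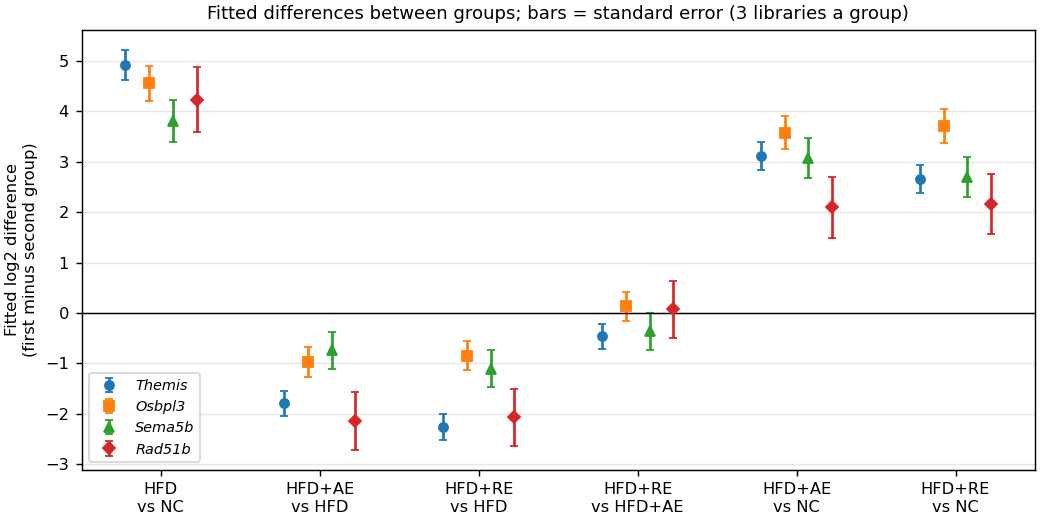
Fitted log2 difference (first minus second group) of each gene in the 6 comparisons, with the standard error as bars. HFD vs NC chose the genes; in HFD+AE vs HFD and HFD+RE vs HFD all 4 points lie below 0, and in HFD+RE vs HFD+AE they lie between -0.46 and 0.13.

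How far each gene returned can be read as the share of its log2 difference between HFD and NC that was absent in an exercise library. Return here means this difference between groups, not a change followed in time. A share of 0% is the HFD mean and 100% the NC mean. Rad51b returned by 49.1% ± 14.2 in HFD+AE and 52.1% ± 25.8 in HFD+RE (SD, n = 3), and Themis by 37.4% ± 8.55 and 46.5% ± 6.99. Sema5b returned by 21.2% ± 13.9 and 33.6% ± 23.4, and Osbpl3 by 21.01% ± 4.71 and 19.4% ± 11.6. The order of Rad51b and Themis in HFD+RE rested on 1 library, since without HFD+RE 3 they stood at 39.7% and 49.5%. Sema5b in HFD+RE stood at 21.7% without that library. The 3 Themis shares lay above the 3 Osbpl3 shares in both exercise groups, while those of Rad51b and Sema5b spread widely over the others. On the CPM scale the same libraries give larger shares and another order, with Themis ahead of Rad51b in HFD+RE and Sema5b behind Osbpl3 in HFD+AE. The shares were then 73.7% in HFD+AE and 81.8% in HFD+RE for Themis, and 81.5% and 80.4% for Rad51b. For Osbpl3 they were 51.4% and 46.4%, and for Sema5b 43.3% and 57.7%.

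The libraries that returned furthest were not the same for the 4 genes. Rad51b had its largest shares in HFD+RE 3 (77.0%) and HFD+AE 1 (61.6%), and its smallest in HFD+RE 4 (25.5%) and HFD+AE 3 (33.6%). Sema5b had the same order within each group, with 57.4% in HFD+RE 3 and 33.7% in HFD+AE 1 against 10.7% in HFD+RE 4 and 6.17% in HFD+AE 3. Themis had its smallest shares where those genes had their largest, 40.3% in HFD+RE 3 and 28.3% in HFD+AE 1, and its largest in HFD+RE 5 (54.1%) and HFD+AE 3 (45.3%). Osbpl3 returned by only 6.29% in HFD+RE 3 and by 23.6% and 28.4% in HFD+RE 4 and 5. HFD+RE 3, which lay on the NC side of the first principal component, was thus the nearest to NC of the HFD+RE libraries for Sema5b and Rad51b and the farthest for Themis and Osbpl3.

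**Figure D3:**
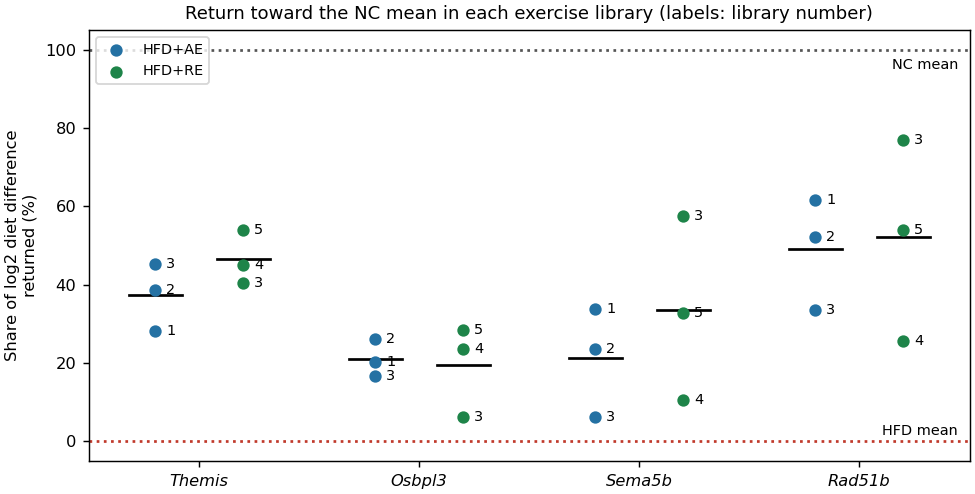
Share of the log2 difference between the HFD and NC means that was absent in each exercise library, in percent. A bar marks the mean of 3, and the library number stands beside each point. Rad51b spans 25.5% to 77.0%, Themis 28.3% to 54.1%, Sema5b 6.17% to 57.4% and Osbpl3 6.29% to 28.4%; no library reached the NC mean for any of the 4 genes.

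HFD+RE vs HFD+AE compared the trainings directly, in libraries that took no part in choosing the genes. None of the 4 was called by edgeR or by DESeq2, and none had an unadjusted p under 0.05. Themis was lower with RE by a log2 difference of -0.46 (SE 0.25, 95% interval -1.04 to 0.11, adjusted p = 0.61). Without HFD+AE 3 and HFD+RE 3 that difference was -0.80 (adjusted p = 0.037), in a fit that called 4170 genes where the full set of libraries called 0. Sema5b differed by -0.36 (95% interval -1.20 to 0.47), Osbpl3 by 0.13 (-0.54 to 0.80) and Rad51b by 0.07 (-1.22 to 1.36). The intervals thus leave room for a change of more than 2-fold either way in Rad51b. Over all genes edgeR called 0%, with 1468 genes at an unadjusted p under 0.05, and DESeq2 called 0.149%.

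All 4 genes stayed above the normal-diet level in both exercise groups, and no exercise library overlapped the NC libraries. HFD+AE or HFD+RE lay wholly above NC for 12.1% and 13.7% of all genes. In HFD+AE vs NC, Osbpl3 was higher by 3.58 (SE 0.33, adjusted p = 0.00033), Themis by 3.12 (SE 0.28, adjusted p = 0.00033) and Sema5b by 3.07 (SE 0.40, adjusted p = 0.0044). Rad51b differed by 2.09 (SE 0.60, adjusted p = 0.12). In HFD+RE vs NC the differences were 3.71 for Osbpl3 (adjusted p = 0.00068), 2.66 for Themis (0.0011), 2.71 for Sema5b (0.0052) and 2.16 for Rad51b (0.061). These are edgeR values, by which 3 of the 4 genes passed in each comparison, while 1.38% and 3.96% of all genes were called and 0.901% and 2.67% were called higher; the NC libraries also took part in choosing the genes. DESeq2 called Rad51b too, with adjusted p = 0.0076 in HFD+AE vs NC and 0.0029 in HFD+RE vs NC, where it called 4.21% and 10.6% of all genes. In edgeR, Rad51b in HFD+RE vs NC moved with the libraries used. It passed without HFD+RE 3 (2.55, adjusted p = 0.012), in a fit that called 3983 genes where the full set called 724, and without HFD+AE 3 (2.15, adjusted p = 0.0495). Without HFD+RE 4 the difference was 1.37 (adjusted p = 0.27).

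Themis is best known from T cells, so its level was set beside 17 markers of T and NK cells, such as the receptor chains Trac and Trbc2. In bulk tissue, fewer cells of a type and less RNA per cell cannot be told apart. Of the 17 markers 7 rose in HFD vs NC, 0 fell and 10 did not pass (median 1.89, beside 0.01 over all genes, of which 8.38% rose and 15.6% were called). Named after their values were seen, Trac rose by 2.14 (adjusted p = 0.026), Cd2, an adhesion molecule of T cells, by 2.60 (0.018) and Cd247, the zeta chain of the receptor, by 2.17 (0.032). Their summed level was 7.73 to 14.7 CPM in NC and 35.97, 8.27 and 67.5 CPM in HFD 1, 2 and 3. HFD 2 thus had a marker sum inside the NC range and the highest Themis level of all 12 libraries, 27.6 CPM. Themis was 3.34 times the marker sum in HFD 2, but 0.672 times in HFD 1 and 0.315 times in HFD 3. It was 0.0637 to 0.101 times the sum in NC and 0.309 (HFD+RE 5) to 1.14 times (HFD+AE 1) in the exercise libraries.

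In the exercise groups the marker sum was 5.94 to 9.68 CPM with AE and 10.05 to 12.4 CPM with RE, at or below the highest NC library, while Themis stayed above every NC library. None of the 17 markers was called by edgeR in HFD+AE vs HFD or HFD+RE vs HFD. At an unadjusted p under 0.05 there were 14 in each, beside 26.4% and 8.77% of all genes. DESeq2 called 14 and 6, beside 10.3% and 1.0% of all genes (median log2 differences -2.36 and -1.88). Among other cell type lists, the neutrophil, adipocyte, endothelial and hepatocyte sums did not overlap between HFD and HFD+AE. In HFD+RE the neutrophil and endothelial sums overlapped those in HFD. The stellate, cholangiocyte, Kupffer cell, erythroid and B and plasma cell sums overlapped HFD in both exercise groups. The neutrophil sum was 7.20 to 13.4 CPM in HFD, 2.48 to 3.58 in HFD+AE and 2.74 to 7.26 in HFD+RE. The adipocyte sum was 13.0 to 51.7, 4.70 to 7.92 and 8.68 to 11.2 CPM in the same order, and the endothelial sum 92.1 to 152, 175 to 304 and 85.6 to 225 CPM. The adipocyte sum rests on few genes, since 1 to 4 of its 6 markers had no reads in each library. In HFD it came mostly from Cfd and Fabp4, with means of 20.1 and 8.19 CPM. The part of these lists in the lower levels of the 4 genes was not tested. All 17 T and NK cell markers had reads in every library except NC 4, where 1 was at 0. Of 17 tested genes of T-cell receptor signalling, the pathway in which THEMIS acts, 3 rose, 2 fell and 12 did not pass in HFD vs NC (median 0.14), beside 8.38% that rose among all genes. The kinase Zap70 rose by 1.29 (adjusted p = 0.0045), while the phospholipase Plcg1 fell by 0.78 (0.019) and the phosphatase Ptpn11 by 0.64 (0.030). None of that list was called by edgeR in either exercise comparison with HFD, with 9 and 7 at an unadjusted p under 0.05 and 7 and 2 called by DESeq2.

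**Figure D4:**
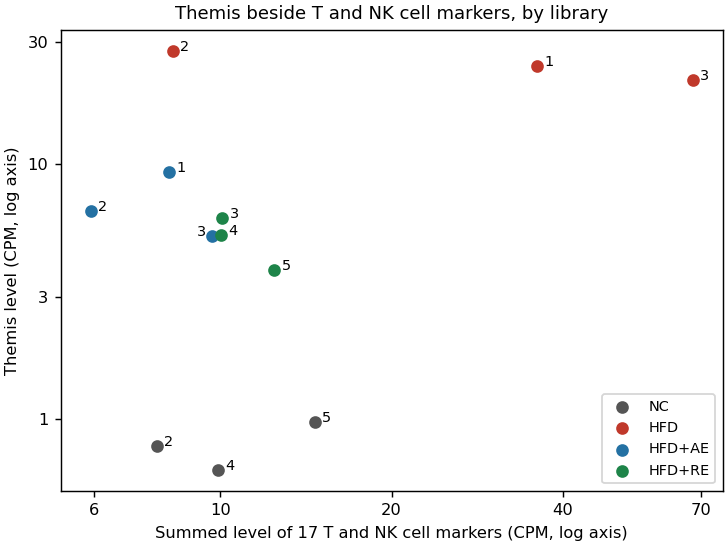
Themis level against the summed level of 17 T and NK cell markers, both in CPM on log axes, for the 12 libraries, with the library number beside each point. HFD 2 stands at 27.6 CPM of Themis with a marker sum of 8.27 CPM, and the exercise libraries lie between the HFD and NC groups in Themis at marker sums of 5.94 to 12.4 CPM.

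Relatives of the other 3 genes were called in HFD vs NC about as often as genes in general. Of 63 such genes in 3 lists, 10 were called (15.9%, beside 15.6% of all genes) and 6 rose (9.52%, beside 8.38%). Of 14 other genes of the oxysterol-binding protein family and its partners, 2 rose, 1 fell and 11 did not pass in HFD vs NC (median -0.19). Osbpl5, another lipid transfer protein, rose by 2.17 (SE 0.37, adjusted p = 0.0054) from 2.28 to 10.3 CPM, Osbpl7 rose by 0.998 (0.023), and Osbp, the founding member, fell by 0.72 (0.031). Of 28 other semaphorins, plexins and neuropilins, 3 rose, 2 fell and 23 did not pass (median -0.16). Sema3b, a secreted semaphorin, rose by 1.88 (adjusted p = 0.016), the co-receptor Nrp2 rose by 0.73 (0.034), and the receptor Plxnb1 fell by 0.85 (0.033). Of 21 other genes of homologous recombination, 1 rose, 1 fell and 19 did not pass (median -0.06). Brca2, a mediator of that repair, rose by 0.89 (adjusted p = 0.023). Rad51c, a partner of RAD51B in a protein complex, fell by 1.44 (0.039), opposite in sign to the difference of Rad51b itself.

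None of these 3 lists had a member called by edgeR in HFD+AE vs HFD, where only 0.0492% of all genes were. At an unadjusted p under 0.05 there were 2, 11 and 0 of their genes, 20.6% of the 63 beside 26.4% of all genes. DESeq2 called 0, 2 and 0 of them, beside 10.3% of all genes. In HFD+RE vs HFD edgeR and DESeq2 called 0, beside 0.0109% and 1.0% of all genes. At an unadjusted p under 0.05 there were 0, 4 and 1, which is 7.94% of the 63 beside 8.77% of all genes. Lipid storage genes, the list closest to the fat content of the liver, had 10 of 20 members that rose in HFD vs NC, beside 8.38% of all genes, and 10 that did not pass (median 1.12). In HFD+AE vs HFD edgeR called 1 of them, the lipid droplet protein gene Cidec, which fell by 2.22 (adjusted p = 0.022). There 7 had an unadjusted p under 0.05 and DESeq2 called 5, beside 26.4% and 10.3% of all genes. In HFD+RE vs HFD edgeR called 0. There 6 had an unadjusted p under 0.05 and DESeq2 called 4, beside 8.77% and 1.0% of all genes.

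The genes next to the 4 had smaller or opposite log2 differences between the diets. That was nearly certain beforehand, because the 4 were chosen for this difference. Only 19 of all tested genes had a larger one than Themis, and 72 a larger one than Sema5b. Ptprk, a receptor phosphatase gene 70962 bases from Themis, fell by 1.13 in HFD vs NC (SE 0.26, adjusted p = 0.017). Zfyve26, 977 bases from Rad51b on the other strand, fell by 0.62 (SE 0.18, adjusted p = 0.036). The remaining tested neighbours did not pass: Gsdme and Cycs beside Osbpl3 stood at 0.44 and 0.13, Pdia5 and Hspbap1 beside Sema5b at -0.61 and 0.49, and Zfp36l1 beside Rad51b at -0.13. No neighbour was called in HFD+AE vs HFD or HFD+RE vs HFD, where their log2 differences ran from -0.52 (Gsdme) to 0.81 (Ptprk) and from -0.41 (Hspbap1) to 0.39 (Ptprk). The only annotated gene that shares exon bases with any of the 4 is the pseudogene 4930519F09Rik, with 153 bases opposite Themis, and it had 0 or 1 reads in each library.

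**Figure D5:**
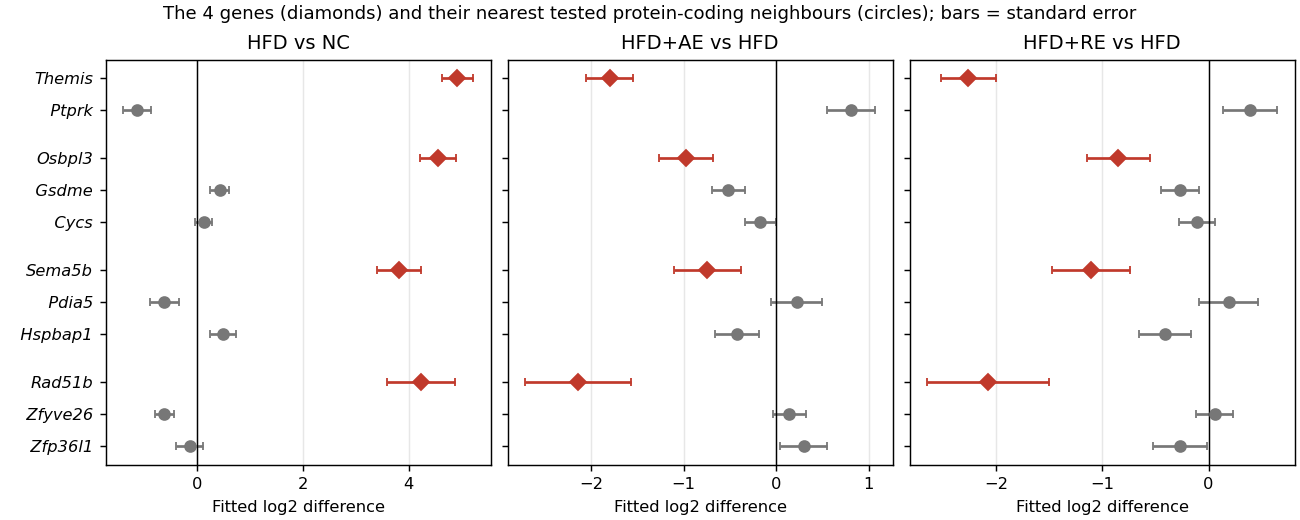
Fitted log2 difference of the 4 genes (diamonds) and of their nearest tested protein-coding neighbours (circles) in HFD vs NC, HFD+AE vs HFD and HFD+RE vs HFD, with the standard error as bars. In HFD vs NC the neighbours lie between -1.13 and 0.49 and the 4 genes, which were chosen by that difference, between 3.81 and 4.92.

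Likeness of pattern was measured by Pearson's r of log2 CPM over the 12 libraries, which share the 4 groups, and is a description. Pearson's r does not depend on the size of a gene's differences, so a like gene may differ much less between groups. The gene most like Themis was Osbpl3 (r = 0.93), followed by Stk39, a kinase of ion transport regulation (0.93), Pdlim2 (0.92), Ttc39a (0.92) and the acetyltransferase Nat1 (0.92). Ttc39a had mean levels of 0.371 CPM in NC, 5.84 in HFD, 2.16 in HFD+AE and 1.72 in HFD+RE. Stk39 differed less, at 1.62, 3.24, 2.29 and 2.18 CPM in the same order of groups. Osbpl3 was most like Stap1, an adaptor protein (0.95), which stood at 0.955, 12.6, 5.79 and 9.98 CPM. Next came Dglucy, Cntnap1, Tmem14a and Tmem237 (0.94 to 0.95). Dglucy stood at 24.4, 50.1, 49.5 and 48.7 CPM, so its exercise means were close to its HFD mean.

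Sema5b was most like Tlr12, a Toll-like receptor (r = 0.98), which stood at 2.44, 22.6, 19.4 and 16.3 CPM in NC, HFD, HFD+AE and HFD+RE. Prnp, Wnt5b and Cyp2b9 (0.96) were also among the genes most like it. Cyp2b9, a P450 found mainly in female liver, stood at 1.003, 257, 207 and 72.7 CPM. Rad51b was most like Usp18, a protease of the interferon response (0.94), and then like Tceal8, Pdlim2, Ten1 and Wwtr1 (0.93 to 0.94). Usp18 stood at 6.55, 11.3, 9.23 and 8.62 CPM, and Tceal8 at 5.25, 32.8, 15.6 and 16.9 CPM. Among the 4 genes themselves, r ran from 0.79 for Osbpl3 with Rad51b to 0.93 for Themis with Osbpl3, and the 4 were chosen for the diet difference that enters these values.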

How the data were processed

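Gene-level RNA-seq was measured in 12 mouse liver libraries. The authors deposited 1 table of raw read counts per gene with gene lengths, whose layout is that of featureCounts (2.0.6, per the file headers). The submitters' processing notes also list HISAT2 (2.2.1), fastp, DESeq2 (1.40.1) and the build mm10. How strand and multi-mapping reads were treated, and which annotation was used, is not given in the sources used here. Counts per gene do not tell isoforms apart.

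From the counts, all 12 libraries were fitted in 1 model with a mean per group (edgeR 4.0.16 in R 4.3.3: TMM, default low-count filter by group, robust quasi-likelihood F-test). DESeq2 1.42.0 was an alternative. In the main edgeR fit p-values were adjusted over the 18305 genes tested. DESeq2 adjusted over its own filtered genes, from 16141 (HFD+RE vs HFD+AE) to 19787 (HFD+AE vs HFD), and its shares of all genes refer to these. The pipeline was tested on simulated data, drawn without the length trend or other structure among libraries. That test therefore cannot speak to the part of such structure in the calls. Log2 CPM used a prior count of 2, RPKM divides CPM by gene length, and 95% intervals use 8 residual degrees of freedom. Replicate numbers follow the labels. Promoter windows come from RefSeq (GRCm38.p6), where all 4 genes matched by symbol.

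The members, gene lists, tests and alternatives were chosen with earlier results of these data known. The named genes are the 4 members, their nearest protein-coding or overlapping neighbours, the 5 genes most like each by Pearson's r (mean log2 CPM above 0, no predicted or clone names), and up to 3 called genes per list, in the exercise comparisons and, for the 4 pathway and family lists of the members, in HFD vs NC. 1 gene that this rule names is not reported here. Cell type lists other than T and NK cells had these summed levels over libraries in NC and HFD: hepatocyte 115929 to 130479 and 64202 to 89774 CPM, B and plasma cell 14.4 to 29.7 and 25.4 to 50.2, neutrophil 4.70 to 5.99 and 7.20 to 13.4, Kupffer cell 197 to 322 and 72.3 to 193, endothelial 209 to 256 and 92.1 to 152, stellate 108 to 122 and 202 to 292, cholangiocyte 25.9 to 40.2 and 34.1 to 52.4, adipocyte 5.24 to 6.49 and 13.0 to 51.7, and erythroid 159 to 301 and 273 to 493. Their part in the results was not tested.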

Additional observations from a re-analysis of the deposited data

How the results depend on the processing

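Each of the 20 tests of the 4 genes in the 5 comparisons was repeated under 19 alternatives. Of these 380 values, 343 kept the direction and the side of the threshold, 12 lost the call, 18 gained it and 7 changed sign, all 7 in HFD+RE vs HFD+AE. DESeq2 size factors (RLE) in edgeR changed no call of the 4 genes, and the gene length offset, which removes each library's trend on length, changed none either.

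In HFD+AE vs HFD, Osbpl3 passed without the low-count filter (adjusted p = 0.035), with DESeq2 (0.026), with only the 2 groups compared (0.046) and without HFD+AE 3 and HFD+RE 3 (0.017). Rad51b passed with DESeq2 (0.0043), with only the 2 groups (0.039) and without those 2 libraries (0.016), and Sema5b without those 2 libraries (0.013). Rad51b also passed with DESeq2 in HFD+RE vs HFD (0.021), HFD+AE vs NC (0.0076) and HFD+RE vs NC (0.0029), and without those 2 libraries in HFD+RE vs NC (0.0083). In HFD+RE vs HFD+AE, without those 2 libraries Themis passed (0.037), Osbpl3 turned to -0.13 (0.77) and Sema5b to 0.31 (0.42). The cause was not tested.

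The numbers do not pair the samples by the labels. Deviations of same-numbered HFD and HFD+AE libraries correlated at -0.12, 0.11 and 0.09 across genes, and 3 of these 6 libraries correlated best with their own number. With the replicate block, adjusted p was 0.11 for Themis in HFD+AE vs HFD, 0.29 in HFD+RE vs HFD and 0.077 in HFD+AE vs NC, 0.076 for Osbpl3 in HFD+AE vs NC, and 0.068 and 0.055 for Sema5b in HFD+AE vs NC and HFD+RE vs NC. Rad51b turned to -0.57 in HFD+RE vs HFD+AE (0.99998) under that block, which leaves fewer degrees of freedom.

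Leaving out 1 library at a time, adjusted p for Themis ran from 0.012 to 0.18 in HFD+AE vs HFD. For Osbpl3 in HFD+AE vs HFD it ran from 0.029 (without HFD+RE 3) to 0.29, and for Rad51b from 0.027 (without HFD+RE 3) to 0.29, with 0.048 without HFD 2. For Rad51b in HFD+RE vs NC it ran from 0.012 to 0.27. In HFD+RE vs HFD+AE, Osbpl3 (0.62 to 0.99995) changed sign without HFD+RE 3, and Rad51b (0.62 to 0.99995) without HFD+AE 1, HFD+AE 2 or HFD+RE 4.

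The number of genes called over the whole table depended much more on the processing. For HFD+AE vs HFD it was 9, and 953 without the filter, 2047 with DESeq2, 649 with only the 2 groups, 2 with the replicate block, 95 with the length offset, 4253 without HFD+AE 3 and HFD+RE 3, and 0 (without HFD 1) to 1930 (without HFD+RE 3) leaving out 1 library. For HFD+RE vs HFD it was 2, and 43 without the filter, 186 with DESeq2, 1 with the replicate block, 5 without those 2 libraries, and 2 to 53 (without HFD 2) leaving out 1. For HFD+RE vs HFD+AE it was 0, and 2 without the filter, 24 with DESeq2, 4170 without those 2 libraries, and 0 to 2 (without HFD+RE 4) leaving out 1. For HFD+AE vs NC it was 253, and 408 without the filter, 781 with DESeq2, 82 with only the 2 groups, 1 with the replicate block, and 44 (without HFD+AE 2) to 373 leaving out 1. For HFD+RE vs NC it was 724, and 1907 with DESeq2, 110 with only the 2 groups, 15 with the replicate block, 5989 without those 2 libraries, and 112 (without HFD+RE 4) to 3983 (without HFD+RE 3) leaving out 1. The 8 mean shares of return moved by less than 1 SD under the other scaling, a prior count of 0.5 and each left-out library, but those SDs are wide: in HFD+RE, Sema5b ran from 21.7% (without HFD+RE 3) to 45.1% (without HFD+RE 4) and Rad51b from 39.7% to 65.5% without the same libraries.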

Other observations

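The return of the 4 genes can be set beside that of other genes high on the diet, as a description chosen after the values were seen. Among the 33 genes called in HFD vs NC with a log2 difference above 3 and an HFD mean log2 CPM above 1, which include the 4, the median share of return was 41.7% in HFD+AE (middle range 21.2% to 61.8%) and 41.3% in HFD+RE (20.4% to 53.8%). In HFD+AE, 12 of the 33 returned further than Rad51b, 19 further than Themis, 24 further than Sema5b and 25 further than Osbpl3. In HFD+RE, 10 returned further than Rad51b, 12 further than Themis, 19 further than Sema5b and 25 further than Osbpl3. Over all 1534 genes called higher in HFD, whose differences were mostly smaller, the median share was 59.7% in HFD+AE and 30.4% in HFD+RE. These shares rest on the same HFD libraries that chose the genes.

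Gm47834, a pseudogene inside the Themis locus on the other strand that shares no exon bases with it, had 5 to 23 reads in the HFD libraries, fewest in HFD 2, and 0 to 2 in the NC libraries. In the 6 exercise libraries it had 0 to 5 reads.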
